A study of Drosophila melanogaster with 3 samples.

Results

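Signal for 9 genes of replication licensing and DNA synthesis was described in OSS cells, a stable somatic line that its submitters trace to stem cells of the follicular epithelium of the Drosophila melanogaster ovary. The genes were chosen by name: the MCM helicase genes Mcm2, Mcm3, dpa, Mcm5 and Mcm6, the origin recognition gene Orc1, the loading factor gene dup, the sliding clamp gene PCNA and the ribonucleotide reductase gene RnrL. They are 9 of the 11982 genes with a probe set annotated to 1 gene only, and each of the 9 had exactly 1 such probe set. The study hybridised 3 samples of total RNA from these cells to Affymetrix GeneChip arrays, and all 3 samples formed 1 group. The cells carried no labelled genetic change, received no treatment beyond their standard insulin-, glutathione-, serum- and fly-extract-supplemented medium, were in exponential growth and were harvested from near-confluent wells. OSS is 1 cell line. Separate cultures are not stated for the samples, so SDs and p-values cover the spread among these 3 arrays, possibly technical alone.

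As background, a cell licenses its DNA for replication before S phase by loading a ring of MCM proteins onto chromatin at sites marked by the origin recognition complex, with the help of Cdc6 and of Cdt1, which Drosophila calls Double parked. The ring becomes the replicative helicase once Cdc45 and the GINS complex join it. PCNA then encircles the DNA and holds the polymerases on it, and ribonucleotide reductase supplies the deoxynucleotides. In the ovary, follicle cells divide by mitosis early in oogenesis and later switch to endocycles and to amplification of eggshell genes. These modes share much, though not all, of this machinery.

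Values were used as deposited, on a log2 scale whose base was inferred from their range. They ran from a shared lowest value of 2.39 to 14.75, and the 3 array medians lay between 2.399 and 2.401. Background was set at 2.49 from 112 odorant and gustatory receptor genes, as the 95th percentile of their means. The highest of these, Gr39a, measured 2.79. Of the 112 receptor genes themselves, 105 were called below this level, 5 above it and 2 were unresolved. A call below background therefore means under that level, and does not set a gene apart from the receptor genes. Nor does a call above it where the gene's mean lies under the highest receptor gene. Values were identical on all 3 arrays, to every deposited digit, in 67.2% of the 18952 probe sets, so an SD near 0 understates the error. The line's labelled origin was checked with markers: tj (6.83 ± 0.69) and zfh1 (5.10 ± 0.25; SD, n = 3 each) of follicle cells were above background, while Fas3 was not analysed here. All 5 germline markers (vas, nanos, osk, bam and orb) and all 3 hemocyte markers (Hml, eater and NimC1) lay at 2.39, as did 2 of 3 neuronal markers; the exceptions among markers of other cell types were elav at 2.72 and the muscle gene Mlc2 at 3.25, with up at 2.395 and Act88F at 2.39.

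All 5 measured genes of the MCM ring were called above background in OSS cells, where 47.0% of all genes tested were. Their means stood between 1.21 and 4.84 log2 units over the background level, and no array of any of them reached down to the highest receptor gene. Mcm7, the remaining ring gene, was not analysed here. Probe sets differ in affinity, so the values of different genes do not rank their transcripts.

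Mcm2, whose subunit flanks the gate through which the ring opens, measured 5.38, 5.12 and 5.26 on replicates 1 to 3. Its mean of 5.26 ± 0.13 (SD, n = 3) lay 2.77 log2 units over the background level of 2.49 (limma, adjusted p = 0.00018). The 3 arrays were close to each other, with replicate 2 lowest. Mcm5, which lies on the other side of that gate, measured 5.21, 4.76 and 4.97 on the 3 arrays. Its mean was 4.98 ± 0.22, or 2.49 log2 units over background (limma, adjusted p = 0.00076), and replicate 2 was again the lowest.

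Mcm3, the neighbour of Mcm5 in the ring, measured 6.50, 6.00 and 6.27. Its mean of 6.26 ± 0.25 lay 3.77 log2 units over background (limma, adjusted p = 0.00038). Mcm6, which sits between Mcm2 and Mcm4 in the ring, measured 7.46, 7.13 and 7.38, with a mean of 7.32 ± 0.17 and a difference from background of 4.84 log2 units (limma, adjusted p = 1.0e-04; SD, n = 3 each). In both genes replicate 1 was the highest array and replicate 2 the lowest.

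The gene dpa, which encodes the Mcm4 subunit, had the smallest difference from background among the ring genes. It measured 3.88, 3.34 and 3.88 on the 3 arrays, and replicates 1 and 3 differed by 0.00018. Replicate 2 stood 0.53 log2 units under both of them. The mean of 3.70 ± 0.31 (SD, n = 3) lay 1.21 log2 units over background, which passed (limma, adjusted p = 0.0083). Against a stricter level, 1 log2 unit over background, dpa was not called (limma, adjusted p = 0.50). Without replicate 1 the difference from background was 1.12 log2 units (limma, adjusted p = 0.048). Without replicate 3 it was 1.12 as well (limma, adjusted p = 0.035). Without replicate 2, the low array, it was 1.41 log2 units (limma, adjusted p = 1.6e-04). The value of 0.048 was the highest for any of the 9 genes over the 15 alternatives at other settings. Those of dpa began at 1.3e-12, with a pooled spread.

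**Figure D1:**
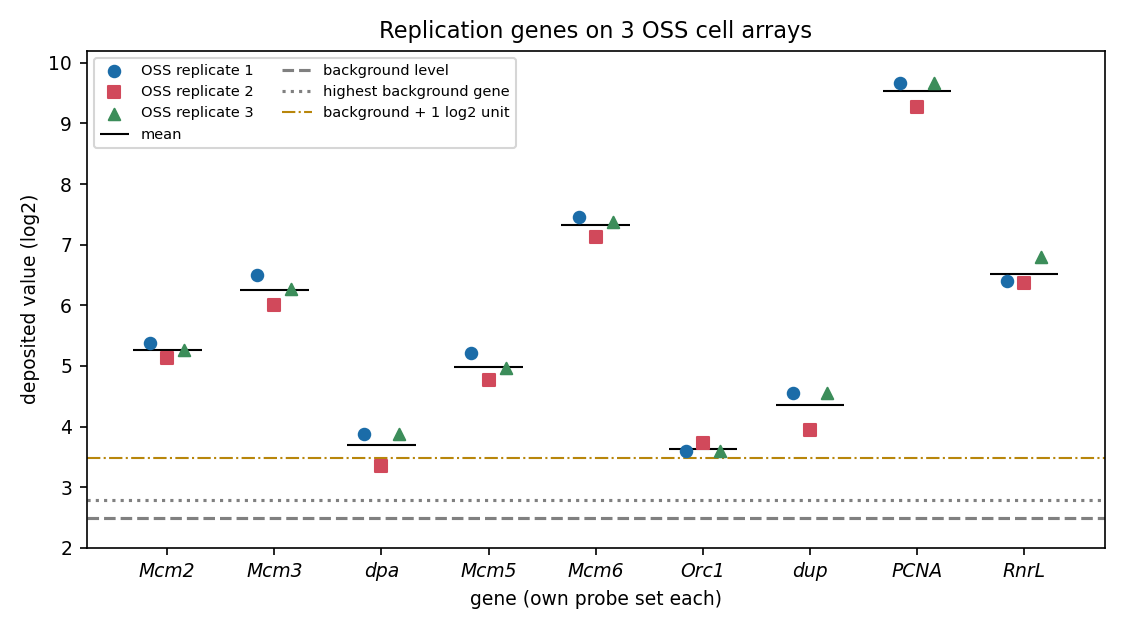
Deposited log2 value (vertical axis) of each of the 9 genes (horizontal axis) on the 3 OSS arrays, with the gene's mean as a black bar, the background level, the highest receptor gene and the level 1 log2 unit over background. Every point lies over the highest receptor gene at 2.79, and dpa on replicate 2, at 3.34, is the only point under the level 1 log2 unit over background.

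The genes that bring the ring to chromatin were above background too. Orc1, the ATPase subunit of the origin recognition complex, measured 3.59 on replicates 1 and 3, identical to every deposited digit, and 3.73 on replicate 2. Its mean of 3.64 ± 0.078 (SD, n = 3) lay 1.15 log2 units over background (limma, adjusted p = 0.00041). It was the gene of the 9 with the smallest spread, and the one that was highest, not lowest, on replicate 2. At the stricter level it was not called (limma, adjusted p = 0.077), against adjusted p-values from 1.7e-11 to 0.0061 under the other alternatives.

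The gene dup encodes Double parked, the Drosophila Cdt1, which loads the MCM ring and is removed once S phase starts. It measured 4.55, 3.95 and 4.55 on the 3 arrays. Replicates 1 and 3 lay within 0.0062 log2 units of each other, and replicate 2 differed from the nearer of them by -0.60 log2 units. The highest and lowest arrays differed 1.52-fold on the linear scale. Its mean of 4.35 ± 0.35 (SD, n = 3) was 1.86 log2 units over background (limma, adjusted p = 0.0040), with the largest SD of the 9 genes. At the stricter level it was called narrowly (limma, adjusted p = 0.045).

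PCNA, the sliding clamp that tethers DNA polymerases, measured 9.67 on replicates 1 and 3, identical to every deposited digit, and 9.27 on replicate 2. Its mean of 9.53 ± 0.23 (SD, n = 3) lay 7.05 log2 units over background (limma, adjusted p = 8.5e-05). Under the 3 fits that each left out 1 array its difference from background stayed between 6.98 and 7.20 log2 units. The SD rests on only 2 different deposited values, as it does for Orc1.

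RnrL, the large subunit of ribonucleotide reductase, which holds the catalytic and allosteric sites, measured 6.39, 6.37 and 6.79. Its mean was 6.52 ± 0.24 (SD, n = 3), 4.03 log2 units over background (limma, adjusted p = 3.0e-04). Here replicates 1 and 2 lay within 0.020 log2 units of each other and replicate 3 was the high array, an order not seen in the other 8 genes. The gene of the small subunit, RnrS, was not analysed here.

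All 9 genes were called above background, where 47.0% of the 11870 genes tested were called, and 0 of the 9 below it, where 49.6% were. At the stricter level, 7 of the 9 were called, dpa and Orc1 not, where 25.5% of all genes tested were. The median of the 9 means was 5.26, against 2.47 over all genes tested and 3.98 over the 5582 genes called above background. RNA was taken from whole cultures, so the share of cells in S phase and the RNA of these genes per cell cannot be told apart.

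The arrays differed in a similar way in most of the 9 genes. Replicate 2 gave the lowest value in 8 of the 9, where 30.6% of all genes called above background were lowest on it. There the 9 genes deviated by a median of -0.22 log2 units from the gene's mean. The 5 MCM genes deviated there by between -0.36 and -0.13 log2 units. Replicate 1 deviated by a median of 0.14 and replicate 3 by 0.052 log2 units over the 9 genes.

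The same order was common on the arrays as a whole. Of the 2338 genes called above background with 3 different values, 60.8% were lowest on replicate 2, 28.8% on replicate 3 and 10.4% on replicate 1. Of the 9 genes, 7 had 3 different values, and all 7 were lowest on replicate 2. Of 50 other measured genes of the replication machinery, described below, 12 (24%) were lowest on replicate 2. Among the 14 of these with 3 different values, 8 (57.1%) were. The median deviation of replicate 2 was -0.048 log2 units over the 3957 called genes not identical on all arrays. After quantile normalization between the arrays, 5 of the 9 genes were lowest on replicate 2, against 16.7% of all called genes. Of the 7 with 3 different deposited values, 5 were lowest there, against 34.0% of such called genes. Of the other replication genes 7 of 50 were lowest there, and 3 of the 14 with 3 different deposited values. The 9 genes' median deviation there was -0.094 log2 units, against 0.022 over all called genes and 0.014 over the other replication genes. With arrays centred on the median of values over the lowest, the count was 8 of 9, against 25.3% of all called genes. Of the 7 with 3 different values, all 7 were lowest there, against 52.5%. Of the other replication genes 10 of 50 were, and 8 of the 14 with 3 different values. Single arrays of 1 group allow no test of a difference between arrays, and none was made.

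**Figure D2:**
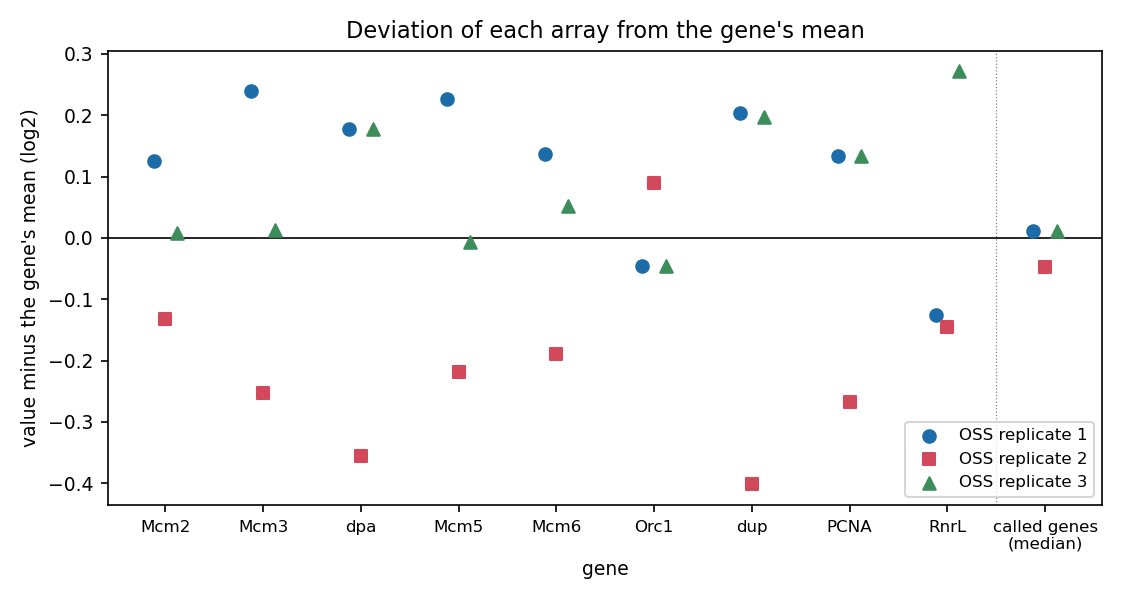
Deviation of each OSS array from the gene's own mean in log2 units (vertical axis) for the 9 genes (horizontal axis), with the median over the 3957 called genes not identical on all arrays at the right. Replicate 2 is the lowest point in every gene but Orc1, with the largest gap at dup (-0.40).

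The SDs of the 9 genes ran from 0.078 for Orc1 to 0.35 for dup, with a median of 0.23 log2 units. Called genes not identical on all arrays had a median SD of 0.13 log2 units, with quartiles at 0.041 and 0.28. None of the 9 had identical values on all 3 arrays, against 29.1% of all genes called above background. Orc1 and PCNA had identical values on 2 arrays, as had 29.0% of all called genes.

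**Figure D3:**
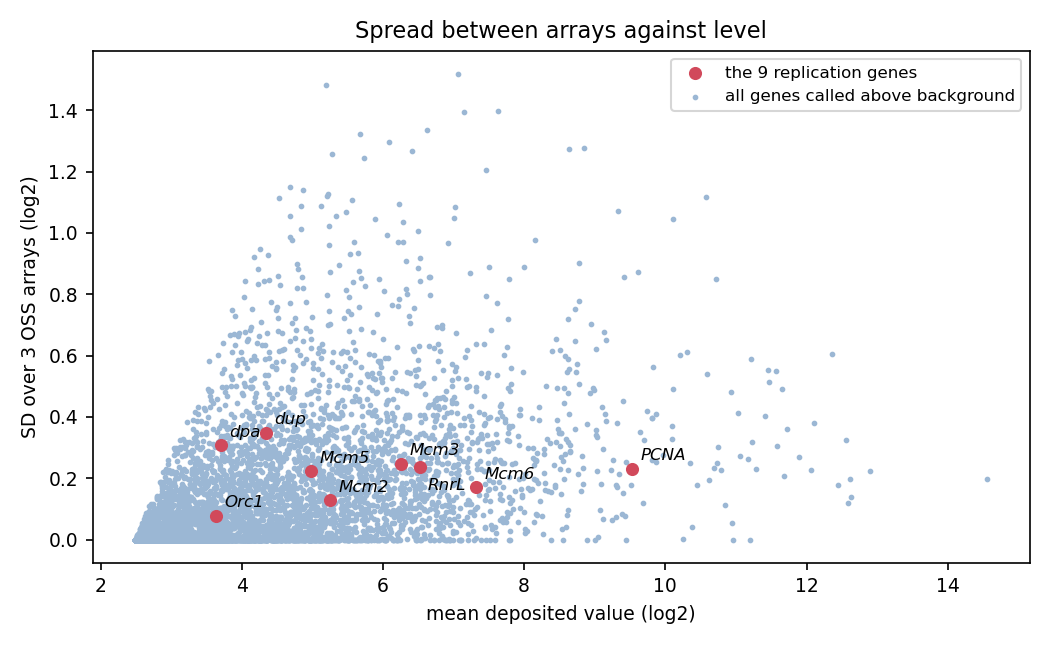
SD over the 3 OSS arrays (vertical axis, log2) against the mean deposited value (horizontal axis, log2) for the 9 named genes, over all 5582 genes called above background. The 9 genes lie between SDs of 0.078 and 0.35, inside the range of the other called genes.

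Other genes of the replication machinery were mostly above background. Of 62 listed genes 50 were measured, and 43 of these (86.0%) were called above background, 3 below and 4 unresolved, where 47.0% of all genes tested were called above. At the stricter level 29 of the 50 were called, where 25.5% of all genes tested were. With a pooled spread 40 of the 50 were called above background, where 4672 of the 11870 genes tested were. Their median level was 4.02, against 2.47 over all genes tested. Of the 50, 15 had identical values on all 3 arrays.

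Among the partners of Orc1 and dup in licensing, every measured gene was called above background, where 47.0% of all genes tested were. Orc2 measured 3.49 on replicates 1 and 2 and 3.53 on replicate 3 (limma, adjusted p = 4.6e-05), and it was not called at the stricter level. Orc5 measured 5.21 on every array and Orc4 2.76 ± 0.0048, under the highest receptor gene. Cdc6, the ATPase that joins the origin recognition complex to load the ring, measured 4.25, 4.15 and 4.37 (limma, adjusted p = 0.00036). Mcm10, which acts on the loaded ring and is no ring subunit, measured 4.14, 4.23 and 4.31 (limma, adjusted p = 0.00021). In both genes the 3 arrays spanned at most 0.22 log2 units. Orc6 and geminin, the inhibitor of Cdt1, were not analysed here.

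All 8 measured genes that turn the loaded ring into a helicase were called above background, where 47.0% of all genes tested were. At the stricter level 3 of the 8 were called, where 25.5% of all genes tested were. Cdc45 at 4.52 ± 0.064 and the Dbf4 kinase subunit gene chif at 4.36 ± 0.019 (SD, n = 3) were among them. So was the GINS gene Psf3, at 3.78 on every array. The other GINS genes were nearer to background, with Psf2 at 3.04 and Psf1 at 2.74 on every array and Sld5 at 2.69 ± 0.0050. The kinase gene Cdc7 measured 3.47 ± 0.18 and mus101, a relative of vertebrate TopBP1, 2.68 on every array. Sld5, Psf1 and mus101 lay under the highest receptor gene at 2.79. Their differences from background were smaller than that of Orc4, which a pooled spread left unresolved. A second probe set of chif, at 2.63, 2.63 and 3.16, was not called (limma, adjusted p = 0.12), so the 2 probe sets disagree.

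Polymerase and primase genes were split: 5 of 8 (62.5%) were called above background, where 47.0% of all genes tested were. Another 2 were unresolved, and PolD3 was called below the level at 2.47 on every array. That value lies within the range of the receptor genes. With odorant receptors alone or bacterial controls as background, PolD3 was called above. PolA1, the catalytic subunit of the polymerase that starts each strand, measured 3.00 on replicates 1 and 2, against 3.90 on replicate 3, and was unresolved (limma, adjusted p = 0.067); without replicate 3 it was called (limma, adjusted p = 0.00026), as it was under 3 other alternatives. The primase gene Prim1 was unresolved too, at 2.57 ± 0.098 (limma, adjusted p = 0.20), and was called without replicate 1 (limma, adjusted p = 0.025). PolE1, the leading-strand polymerase, measured 3.15 ± 0.028 and PolE2 2.62, under the highest receptor gene, while PolA2 measured 2.94 on every array (SD, n = 3). The only members of this group called at the stricter level were PolD2 at 5.94 ± 0.22 and Prim2 at 3.88 ± 0.10. Those 2 were 25% of the 8 measured, near the 25.5% of all genes tested. PolD1, which holds the catalytic subunit of the polymerase that PCNA clamps to the lagging strand, was not analysed here.

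The genes that load PCNA were called throughout, and at the stricter level too, where 47.0% and 25.5% of all genes tested were. All 5 clamp loader genes passed both levels, among them Gnf1, the large subunit, at 4.82, 4.73 and 4.82 and RfC3 at 4.38 on every array. All 3 genes of the single-strand binding complex RPA passed both levels, with RPA1 at 8.27 ± 0.019 (SD, n = 3). So did all 4 chromatin assembly genes, among them the histone chaperone gene asf1 at 3.53 on every array. Of 4 measured genes of Okazaki fragment processing and topology, 3 (75%) were called above background. At the stricter level 1 (25%) was called, the ligase gene DNAlig1 at 4.25 ± 0.092, near the share of all genes tested. The flap nuclease gene Fen1 measured 3.58 ± 0.050 and Top1 2.85 ± 0.023. The RNase H gene rnh1 measured 2.64 ± 0.12 and was unresolved (limma, adjusted p = 0.10), but was called without replicate 3 (limma, adjusted p = 0.0035) and under 4 other alternatives.

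Beside RnrL, all 4 measured genes of nucleotide supply were called above background at both levels, where 47.0% and 25.5% of all genes tested were. The thymidylate synthase gene Ts measured 7.14, 6.42 and 6.37, and dUTPase, which keeps uracil out of DNA, 9.60, 8.82 and 8.90. In both genes replicate 1 stood apart as the high array, with ranges of 0.77 and 0.78 log2 units, whereas in RnrL replicate 3 did. The deoxynucleoside kinase gene dnk measured 6.27 ± 0.16 (SD, n = 3).

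S phase regulators were uneven. Of 8 measured genes 6 (75%) were called above background, where 47.0% of all genes tested were. Among them were Dp, the partner of E2F transcription factors, at 5.03 ± 0.14, and the kinase gene Cdk2 at 4.14 ± 0.31. Dref, a factor that binds promoters of replication genes, was called too, at 4.94 ± 0.23. CycE, the cyclin that starts S phase, was near background at 2.76, 2.76 and 3.065 (limma, adjusted p = 0.033); without replicate 1 or 2 it was not called (0.088 and 0.075), and p-values under the other alternatives that kept its sign reached 0.59. The retinoblastoma family genes Rbf, at 2.42 on every array, and Rbf2, at 2.39, were called below the level (SD, n = 3). Both lay within the range of the receptor genes. Rbf stood over the level, by 0.011 log2 units or less, with 3 other choices of background. E2f1 has no probe set of its own in the annotation and was not measured as a gene. The meiotic MCM relative rec, a counterpart of vertebrate MCM8, measured 2.91, 2.63 and 3.20 and was unresolved (limma, adjusted p = 0.074), but was called without replicate 2 (limma, adjusted p = 0.046) and under 5 other alternatives.

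**Figure D4:**
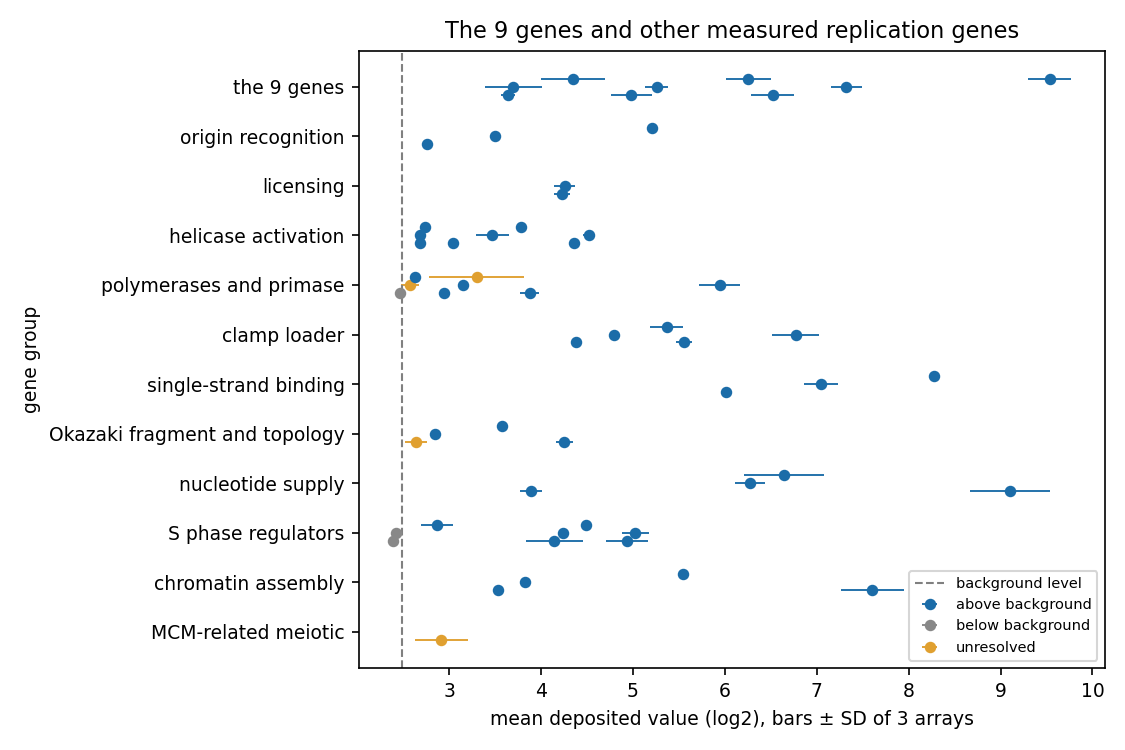
Mean deposited log2 value with SD over the 3 OSS arrays (horizontal axis) of the 9 genes and of 50 other measured replication genes by function (vertical axis), coloured by call against the background level. Origin recognition, licensing, helicase activation, clamp loader, single-strand binding, nucleotide supply and chromatin assembly genes were all called above background. The genes called below it are PolD3, Rbf and Rbf2.

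Genes of the mitotic cell cycle, not all of them acting in mitosis itself, were measured beside them. All 6 measured of 12 listed genes were called above background, 5 of them at the stricter level, where 47.0% and 25.5% of all genes tested were. CycB measured 6.19, 5.67 and 6.08 and CycB3 6.06, 6.08 and 6.08. The cyclin gene CycD measured 3.75 ± 0.0021, the kinase gene aurB 3.74 ± 0.10 and fzr, an activator of the anaphase-promoting complex, 3.50 ± 0.019 (SD, n = 3). For fzy, the other such activator, 1 probe set measured 4.62 on every array, whereas 2 more stood at 2.41 and 2.39, so the 3 probe sets disagree. Its call rests on the highest probe set. None of the 9 replication genes had a second one.

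Gene order gave a last view of the 9 genes. Of their 18 adjacent protein-coding genes in the RefSeq annotation, 16 were measured, and 10 of these (62.5%) were called above background, 5 below and 1 unresolved, where 47.0% of all genes tested were called above. Mcm2 lies next to RPA1, a second replication gene, at 8.28, 8.25 and 8.28, while CG9630 on its other side was under the background level at 2.45. PCNA lies next to plu, a regulator of the S phases of the early embryo, which stood at the lowest value of 2.39 on every array. Orc1 lies beside Drat, which measured 9.05, 7.60 and 6.25, a range of arrays far wider than the 3.59 to 3.73 of Orc1. Both neighbours of RnrL, CG4995 and Schip1, stood at 2.39 on every array. In this annotation 3 neighbours overlap one of the 9: CG3309 with Mcm3 (CG3309 at 2.74 ± 0.0053), PIG-G with Orc1 (4.18 ± 0.022) and SRPK with dup (3.20 ± 0.61, unresolved; SD, n = 3 each). These neighbours were named after their values had been seen.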

How the data were processed

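Total RNA (10 ug) from 3 OSS samples was converted to biotinylated cRNA and hybridised to Affymetrix arrays, per the labels' protocols. The deposited values are levels per probe set, taken as log2 from their range. The authors' scanner files entered custom scripts, per the labels; background correction, scaling and genome build are not given in the sources used here. Having 3 arrays limits the precision. Of 18952 probe sets, 13647 carried 1 gene symbol, 402 several and 4903 none in the platform annotation; several-gene probe sets name no gene. Each gene took its probe set with the highest mean. Each gene's 3 values were set against the background level by limma 3.58.1 in R 4.3.3. The fit used lmFit with an intercept alone, then eBayes, one-sided each way, with Benjamini-Hochberg over 11982 genes and a threshold of 0.05. SDs under 1e-08 were set to 0, and limma's moderation is unreliable for them. The moderation draws on all genes, and 59.5% of the genes tested had identical values on all arrays. The limma p-values of the 9 genes are therefore uncertain too. A pooled spread was tried as well, and with it all 9 genes were called above background. The test was tried on data with simulated raised genes, whose noise held no values identical across arrays. The unraised genes were chosen with means under the level, so this trial could not measure false calls. The 9 genes, lists and settings were chosen with earlier results of these data known. Genes named were the 9, partners fixed with the design, and listed genes not called or with a call that depended on a setting. Orc5, Psf3, PolD2, Prim2, RPA1, asf1, DNAlig1, Ts, dUTPase, dnk and the mitotic cell cycle genes were named after their values were seen. Genes alike over 3 arrays were not sought. Sequences were not used here, coordinates served only for gene order and overlap, and the planned motif and protein descriptions were not made.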

Additional observations from a re-analysis of the deposited data

Results flagged for a closer look

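Signal lay in 2 probe sets that entered no gene result because their annotation lists several genes. The probe set listed for both E2f1 and Torsin measured 5.19, 4.82 and 5.11 on the 3 arrays, with a mean of 5.04, against a background level of 2.49. The probe set listed for both CG34315 and Orc3 measured 2.71 on every array, over the background level but under the highest receptor gene at 2.79. Neither signal can be assigned to 1 of its genes. Groups of 3 arrays are too small for the check on single outlying samples.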

How the results depend on the processing

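Each call was recomputed under 16 alternatives. The 9 genes kept their call in 142 of 144 values; the exceptions were dpa and Orc1 at the stricter level, where 7 of 9 were called. Of 711 values for 45 other named genes, 645 kept theirs. Differences from background of the 9 genes stayed at or above 0.85 log2 units under the other alternatives. Other replication genes above background numbered 29 to 48 of those measured. The mitotic cell cycle genes numbered 3 of 3 without probe sets of shared sequence. Of the 9 genes, 5 were lowest on replicate 2 after quantile normalization, a scaling chosen for that count after the data were seen. The cause was not tested. A raised level turned genes by its own construction. Against 1 log2 unit over background the differences were -0.73 for Orc4, -0.80 for Sld5, -0.74 for Psf1, -0.45 for Psf2, -0.019 for Cdc7, -0.80 for mus101, -0.54 for PolA2, -0.33 for PolE1, -0.86 for PolE2, -0.64 for Top1 and -0.62 for CycE. Against the highest receptor gene they were -0.032 for Orc4, -0.10 for Sld5, -0.047 for Psf1, -0.11 for mus101 and -0.16 for PolE2. Lower levels turned PolD3 to 0.044 with odorant receptors, 0.054 with bacterial controls and 0.046 at the 90th percentile, and Rbf to 0.0011, 0.011 and 0.0029. With the lowest probe set PolD3 stood at 0.019 and fzy at -0.052. Without 1 array, PolD3 ranged from -0.021 to 7.2e-04, turning without replicate 2. No paired analysis was possible because OSS is the sole group. Signal near the shared lowest value limits what can be said of the dimmest genes.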
